A study of Mus musculus with 8 samples.

Results

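Leukaemia inhibitory factor (LIF) signalling was followed through 10 genes: the receptor genes Lifr and Il6st, the kinase gene Jak1, the transcription factor gene Stat3, the feedback inhibitors Socs3 and Socs2, the kinases Pim1, Pim2 and Pim3, and Bcl3. They were chosen by name for their place in the pathway, with earlier results of these data known. All 10 had transcript rows and passed the filter on low values, out of 22963 genes with a summed value and 10278 tested. The cells were mouse embryonic stem cells of 1 wild-type male line, Bruce 4, of the C57BL/6J strain, kept for 2 weeks under 1 of 4 conditions: LN511 (laminin-511, a basement membrane protein) with 2i, gelatin with 2i, LN511 with Std, and gelatin with Std. Each condition had 2 biological replicates, 8 RNA-seq libraries in all. 2i is a medium with inhibitors of MEK and of GSK3. The sources used here give neither the composition of Std nor whether either medium held LIF. The labels call the replicates biological without saying what separates them, so p-values measure the spread between these libraries.

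LIF binds a receptor made of LIFR and gp130, the product of Il6st. JAK kinases on the receptor phosphorylate STAT3, which enters the nucleus and switches on target genes that help mouse embryonic stem cells renew. Among its targets are inhibitors such as SOCS3 that shut the receptor down again. Pim1 and Pim3, which encode serine/threonine kinases, are known LIF-induced genes in mouse embryonic stem cells.

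Pim2 fell in 2i to 4.53% of its Std mean on gelatin and 8.25% on LN511, Socs2 fell on either coating, and Bcl3 rose to more than 3 times its Std level (ratio of means 3.55 on gelatin and 3.81 on LN511). Pim1 and Pim3 fell in 2i on LN511. On gelatin their differences were -0.22 (95% interval -0.96 to 0.52) and 0.01 (-0.45 to 0.47) on the log2 scale. The coating comparison in Std put Socs3 and Pim2 lower and Pim3 higher on LN511. The receptor genes, Jak1 and Stat3 passed the test in no comparison.

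Levels are in FPKM (fragments per length of transcript, scaled to the fragments of the library), summed over the RefSeq transcripts of a gene. FPKM is scaled by length, and on that basis levels are set side by side between genes. Reads given to assembled transcripts outside RefSeq are missing from the sums, by an amount that can differ between genes. Differences are on the log2(FPKM + 1) scale with a standard error (SE). Adjusted p-values are from limma over 10278 genes, and a gene was called under 0.05. The files give no read counts. From the spacing of low FPKM values, the deepest library had 1.19 times the depth of the shallowest. Of 6 listed embryonic stem cell markers, 5 had rows, with summed levels of 1983 to 2176 FPKM in LN511 2i, 1767 to 1827 in gelatin 2i, 1621 to 1741 in LN511 Std and 1486 to 1571 in gelatin Std. Pou5f1, at 949 to 1245 FPKM in all libraries, makes up most of these sums, and single markers differed between the media in both directions. Nanog averaged 582 and 451 FPKM in 2i on LN511 and gelatin, against 45.8 and 54.9 in Std, and Zfp42 65.5 and 51.3 FPKM in 2i, against 18.6 and 19.7 in Std. Utf1 averaged 82.1 and 81.9 FPKM in 2i on LN511 and gelatin, against 393 and 348 in Std. Summed markers of fibroblasts (7 of 7 measured, Postn at 0 throughout) were 1.54 to 2.19 FPKM in the 2i libraries and 3.54 to 5.57 FPKM in the Std libraries. Thy1, the only 1 of them with a mean of 1 FPKM or more, carried most of the Std sums. It averaged 0.39 and 0.36 FPKM in 2i on LN511 and gelatin, against 2.11 and 4.00 in Std. Pdgfrb went the other way, at 1.09 and 1.55 FPKM in 2i, against 0.35 and 0 in Std. Summed markers of neuroectoderm were 5.90 to 8.47 FPKM in 2i and 11.2 to 23.1 FPKM in Std. Nes carried most of the Std sums, at 15.5 and 9.51 FPKM on LN511 and gelatin, against 4.68 and 2.59 in 2i. Sox1 went the other way, at 2.51 and 1.66 FPKM in Std, against 3.05 and 3.24 in 2i. Primitive endoderm markers summed to 4.33 to 4.54 FPKM in LN511 Std, the group in which Pim1, Pim3 and Socs2 were highest, and 0.868 to 2.65 FPKM in the other groups. Of these 7 markers, 0 had a mean of 1 FPKM or more. Dab2, Sox7, Gata4 and Gata6 had their highest group mean in LN511 Std. Foxa2, Sox17 and Pdgfra did not, and Foxa2 was at 0 in both Std groups. Trophoblast markers summed to 16.6 to 31.4 FPKM, with overlap between the media. Mesendoderm markers summed to 5.13 to 11.4 FPKM in 2i and 0.673 to 1.95 FPKM in Std, with Mesp1 at 0 throughout. The part of these markers in the results below was not tested. In bulk RNA, fewer cells that express a gene and less RNA per cell cannot be told apart.

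**Figure D1:**
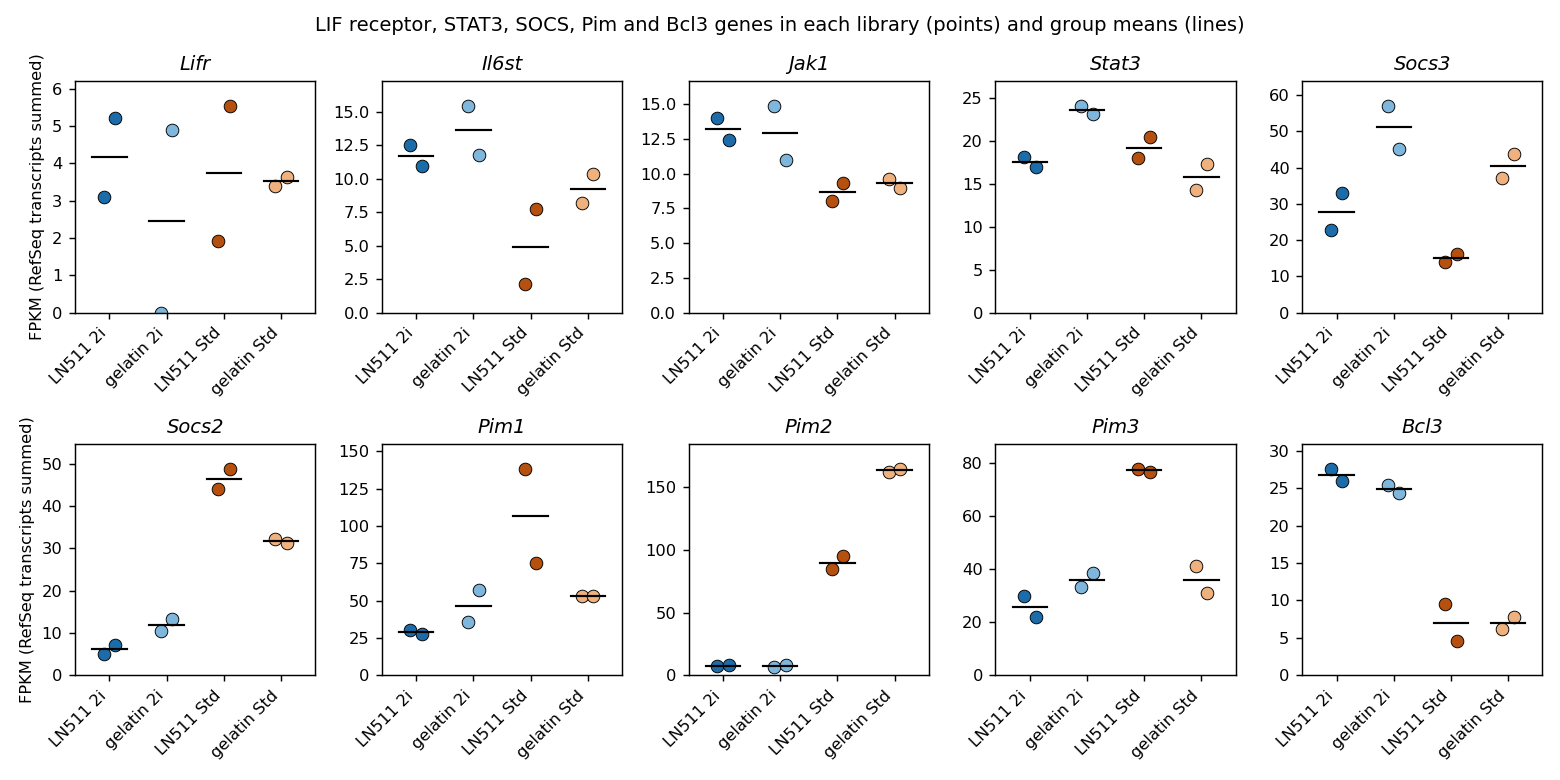
FPKM of each gene (y axis, linear, from 0) in the 8 libraries (points) of the 4 groups (x axis), with a line at each group mean. Pim2 lay between 6.96 and 7.86 FPKM in the 4 libraries in 2i and between 85.1 and 165 FPKM in the 4 in Std, while Bcl3 had the opposite order.

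The first step of the pathway was expressed at a low to moderate level. Lifr (mm10 chromosome 15, 7090610 to 7197489, plus strand) had 3.11 and 5.22 FPKM in LN511 2i, 0 and 4.89 in gelatin 2i, 1.92 and 5.54 in LN511 Std and 3.39 and 3.64 in gelatin Std. All groups overlapped. The 0 in gelatin 2i replicate 1 can be a failed estimate, and without that library the log2 difference of 2i from Std on gelatin was 0.38 in place of -0.89. Genes with replicates split between 0 and 5 FPKM or above were set aside. At 0 and 4.89 FPKM, Lifr stayed in the test only just. Il6st (chromosome 13, 112464070 to 112506860, plus strand), the shared signalling chain, had 12.5 and 10.9 FPKM in LN511 2i, 15.4 and 11.8 in gelatin 2i, 2.12 and 7.72 in LN511 Std and 8.16 and 10.3 in gelatin Std. Every library in 2i lay above every library in Std. The difference was 1.28 (SE 0.46, 95% interval 0.19 to 2.37, adjusted p = 0.103) on LN511 and 0.51 (SE 0.46, -0.58 to 1.60, adjusted p = 0.516) on gelatin, neither of which passed. Without LN511 Std replicate 2, whose fellow library was the lowest of the 8, the LN511 difference was 2.03 and passed (adjusted p = 0.0171).

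Jak1 (chromosome 4, 101151974 to 101265282, minus strand), the receptor's kinase, had 14.0 and 12.4 FPKM in LN511 2i, 14.9 and 11.0 in gelatin 2i, 8.004 and 9.30 in LN511 Std and 9.65 and 8.99 in gelatin Std. Its 2i libraries too were all above its Std libraries. The differences were 0.56 (SE 0.20, 0.08 to 1.04, adjusted p = 0.108) on LN511 and 0.42 (SE 0.20, -0.07 to 0.90, adjusted p = 0.226) on gelatin.

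Stat3 (chromosome 11, 100886806 to 100939594, minus strand) varied within a narrow range, at 18.1 and 16.9 FPKM in LN511 2i, 24.1 and 23.2 in gelatin 2i, 18.0 and 20.5 in LN511 Std and 14.3 and 17.3 in gelatin Std. Gelatin 2i was above the other groups, which overlapped with their neighbours in the order LN511 Std, LN511 2i, gelatin Std. The difference of 2i from Std was 0.56 on gelatin (SE 0.15, 0.20 to 0.92), just short of the threshold (adjusted p = 0.0509), and -0.12 on LN511 (SE 0.15, -0.48 to 0.23, adjusted p = 0.619). Of 3 RefSeq transcripts, the one for the full protein of 770 residues carried 52.7% to 100% of the sum in a library. A transcript for 769 residues, 1 codon shorter, carried 0% to 47.3%, a split between nearly identical transcripts that is uncertain. The transcript for the 722-residue form, which lacks the end of the activation domain, was above 0 in 1 library only, gelatin 2i replicate 2, at 2.36 FPKM.

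The feedback genes moved in opposite directions in 2i on LN511. Socs3 (chromosome 11, 117966079 to 117970336, minus strand), whose product binds gp130 and blocks JAK, had 22.7 and 32.9 FPKM in LN511 2i, 57.1 and 45.2 in gelatin 2i, 14.0 and 16.1 in LN511 Std and 37.2 and 43.9 in gelatin Std. No neighbouring groups overlapped in the order gelatin 2i, gelatin Std, LN511 2i, LN511 Std, so both gelatin groups stood above both LN511 groups. Socs3 was lower on LN511 than on gelatin in Std, at 15.1 ± 1.42 against 40.5 ± 4.73 FPKM (SD, n = 2 each), a difference of -1.37 (SE 0.21, adjusted p = 0.0322). In 2i the difference was -0.87 (SE 0.21, -1.37 to -0.37) and did not pass over all genes (adjusted p = 0.223). 2i raised it on LN511 by 0.82 (SE 0.21, adjusted p = 0.0394), and on gelatin the difference was 0.32 (SE 0.21, -0.18 to 0.83, adjusted p = 0.360). The coating call was lost without any 1 of the 4 Std libraries or of the 2 gelatin 2i libraries (adjusted p = 0.0678 to 0.153). The medium call was lost without any 1 library other than LN511 2i replicate 1 (adjusted p = 0.0539 to 0.165).

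Socs2 (chromosome 10, 95383903 to 95417321, minus strand), a feedback inhibitor best known from growth hormone and STAT5 signalling, had 5.11 and 7.22 FPKM in LN511 2i, 10.6 and 13.4 in gelatin 2i, 44.0 and 48.9 in LN511 Std and 32.2 and 31.4 in gelatin Std. The groups did not overlap. 2i held it at 13.3% of its Std mean on LN511 (log2 difference -2.74, SE 0.19, adjusted p = 0.000401) and at 37.6% on gelatin (-1.35, SE 0.19, adjusted p = 0.0064). Both calls held in all 8 fits with a library left out. LN511 and gelatin lay in opposite order in the 2 media: higher on LN511 in Std by 0.53 (SE 0.19, 0.07 to 0.99) and lower on LN511 in 2i by a difference of -0.86 (SE 0.19, -1.32 to -0.40), neither of which passed over all genes (adjusted p = 0.251 and 0.195). Of its 4 transcripts, 1 carried the whole sum in 6 libraries, and the other 3 were above 0 in 1 library each.

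Sequence 5′ of the start site is shown for Socs3, which separated the coatings, and for Pim2 and Bcl3, which had the lowest and the highest difference of 2i from Std among the members on either coating. The windows run from 250 bases before the start site to 50 after it and are from RefSeq, build GRCm38.p6 (the assembly of mm10). Capitals mark matches to 2 motifs searched on both strands, the STAT element TTCNNNGAA and the octamer ATGCAAAT, the sequence bound by POU factors such as Pou5f1. The octamer was added after the Pim2 window had been read.
Socs3, chr11:117969317-117969616, minus strand: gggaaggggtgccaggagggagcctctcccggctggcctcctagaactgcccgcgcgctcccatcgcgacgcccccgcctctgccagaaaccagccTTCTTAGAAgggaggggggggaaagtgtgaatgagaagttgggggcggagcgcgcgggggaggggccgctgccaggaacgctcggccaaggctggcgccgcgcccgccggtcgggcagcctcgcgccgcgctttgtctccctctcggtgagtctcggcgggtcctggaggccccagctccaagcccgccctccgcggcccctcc
Pim2, chrX:7878056-7878355, plus strand: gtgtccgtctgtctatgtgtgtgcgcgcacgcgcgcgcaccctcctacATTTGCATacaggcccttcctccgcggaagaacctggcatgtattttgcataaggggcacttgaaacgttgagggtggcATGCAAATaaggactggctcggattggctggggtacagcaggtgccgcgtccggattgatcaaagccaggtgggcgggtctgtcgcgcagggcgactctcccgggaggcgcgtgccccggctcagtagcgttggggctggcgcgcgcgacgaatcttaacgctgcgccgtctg
Bcl3, chr7:19822706-19823005, minus strand: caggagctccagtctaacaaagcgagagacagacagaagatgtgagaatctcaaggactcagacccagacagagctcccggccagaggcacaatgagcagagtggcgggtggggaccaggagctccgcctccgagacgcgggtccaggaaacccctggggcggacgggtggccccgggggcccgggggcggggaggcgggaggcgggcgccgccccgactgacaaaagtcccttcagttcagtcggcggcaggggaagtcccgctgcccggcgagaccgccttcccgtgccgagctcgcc
The Socs3 window lay inside the coordinates given above for the gene (117966079 to 117970336). Its start site is therefore not the outermost 5′ end of the gene. The window held 1 STAT element, TTCTTAGAA, which starts 154 bases before that start site. It was the only match to that motif in the 11 windows found for 9 of the members. Socs2 had no entry. The same element with a spacer of 4 bases in place of 3 had no match in the 11 windows. Of all 32851 windows in the table, 8.30% held the element with 3 bases and 6.95% that with 4. The Pim2 window held the octamer at 2 places, 202 bases before the start site on the minus strand and 123 bases before it on the plus strand. The octamer was in 1.74% of all windows, and 0.107% held it more than once. The Bcl3 window held none of these motifs. These are matches of letters and not measured binding.

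Pim2 (chromosome X, 7878306 to 7883432, plus strand) encodes a kinase that, like its relatives, is active as soon as it is made. Its protein and its activity were not measured here. Pim2 had 7.03 and 7.81 FPKM in LN511 2i, 6.96 and 7.86 in gelatin 2i, 85.1 and 94.8 in LN511 Std and 162 and 165 in gelatin Std. The libraries in 2i were alike on both coatings, and far below all those in Std. 2i left 4.53% of the Std mean on gelatin (log2 difference -4.29, SE 0.12, adjusted p = 2.19e-05) and 8.25% on LN511 (-3.43, SE 0.12, adjusted p = 4.8e-05). In Std it was lower on LN511, at 90.0 ± 6.87 against 164 ± 1.81 FPKM (SD, n = 2 each; log2 difference -0.86, SE 0.12, adjusted p = 0.026). In 2i the coatings differed by 0.00 (SE 0.12, -0.29 to 0.29). Both medium calls held in all 8 fits with a library left out, and the coating call was lost without any 1 of the 4 Std or 2 gelatin 2i libraries (adjusted p = 0.0502 to 0.140).

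Pim1 (chromosome 17, 29490785 to 29496111, plus strand) had 30.1 and 27.3 FPKM in LN511 2i, 35.9 and 57.3 in gelatin 2i, 138 and 75.0 in LN511 Std and 53.1 and 52.8 in gelatin Std. LN511 Std stood highest with a wide spread, LN511 2i lowest, and the gelatin groups overlapped between them. On LN511, 2i lowered Pim1 to 26.9% of its Std mean (-1.80, SE 0.31, adjusted p = 0.011). Without LN511 2i replicate 2 that call was lost (adjusted p = 0.0566). In Std, LN511 was above gelatin by 0.93 (SE 0.31, 0.19 to 1.68), which did not pass over all genes (adjusted p = 0.218). An antisense gene, Gm26885, overlaps 1173 bases of the Pim1 gene, introns included. The strandedness of the libraries is not given, so reads from bases that both transcripts share cannot be told apart.

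Pim3 (chromosome 15, 88862194 to 88865726, plus strand) had 29.8 and 21.8 FPKM in LN511 2i, 33.3 and 38.5 in gelatin 2i, 77.8 and 76.4 in LN511 Std and 41.0 and 30.8 in gelatin Std. LN511 Std stood above the other groups, near 77 FPKM, LN511 2i below them, and the gelatin groups overlapped between. On LN511, 2i lowered Pim3 to 33.4% of its Std mean (-1.56, SE 0.19, adjusted p = 0.00311), a call that held in all 8 fits with a library left out. In Std it was higher on LN511 than on gelatin by 1.10 (SE 0.19, adjusted p = 0.0453). That call was lost without any 1 of the 4 Std or 2 gelatin 2i libraries (adjusted p = 0.0842 to 0.187) and under all 8 other settings of the fit or table (0.0584 to 0.778).

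The sum of the 3 Pim genes was 66.9 and 56.9 FPKM in LN511 2i, 76.2 and 104 in gelatin 2i, 301 and 246 in LN511 Std and 257 and 249 in gelatin Std. The coatings overlapped in Std, with sums of 274 ± 39.0 and 253 ± 5.63 FPKM on LN511 and gelatin, while the share of Pim2 in the sum did not overlap. Pim2 made up 33.4% ± 7.26 of it in LN511 Std and 64.9% ± 2.16 in gelatin Std. In 2i its share was 12.1% ± 2.28 on LN511 and 8.36% ± 1.10 on gelatin (SD, n = 2 each), so that Pim1 and Pim3 made up most of what was left.

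**Figure D2:**
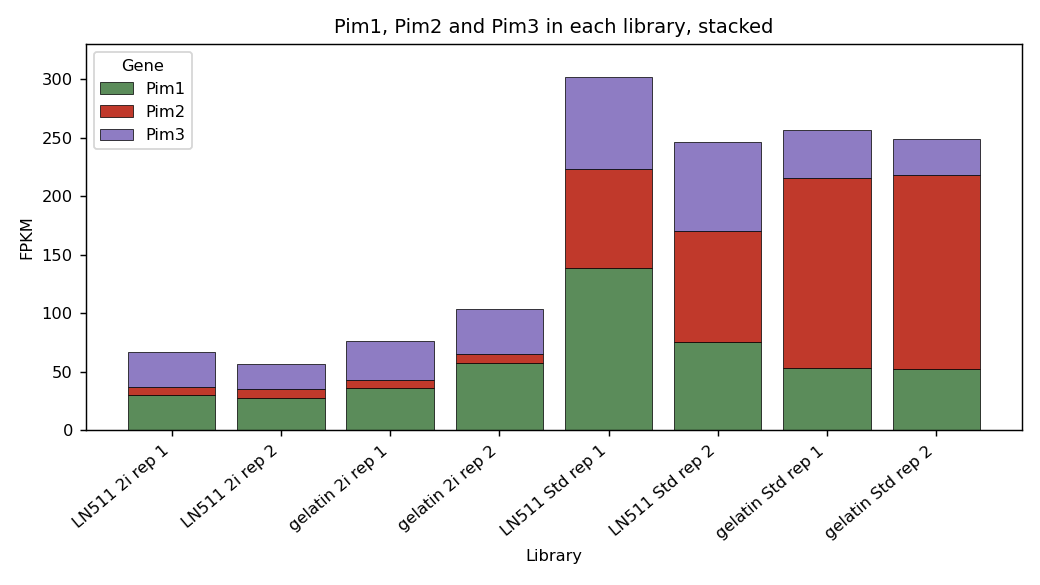
FPKM of Pim1, Pim2 and Pim3 stacked (y axis, from 0) for each of the 8 libraries (x axis). The stacks reach 56.9 to 104 FPKM in 2i and 246 to 301 FPKM in Std, and the Pim2 segment is the largest of the 3 in both gelatin Std libraries.

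Bcl3 (chromosome 7, 19808462 to 19822824, minus strand), which encodes an unusual member of the IkappaB family that works in the nucleus with NF-kappaB p50 and p52, went the other way from Pim2. It had 27.6 and 25.9 FPKM in LN511 2i, 25.4 and 24.4 in gelatin 2i, 9.46 and 4.60 in LN511 Std and 6.20 and 7.82 in gelatin Std. All 4 libraries in 2i lay above all 4 in Std. The difference of 2i from Std was 1.86 (SE 0.29, adjusted p = 0.00791) on LN511 and 1.70 (SE 0.29, adjusted p = 0.0125) on gelatin. The gelatin call was lost without either gelatin 2i library or gelatin Std replicate 1 (adjusted p = 0.0659 to 0.0704). Between coatings the differences were -0.06 (SE 0.29, -0.76 to 0.64) in Std and 0.10 (SE 0.29, -0.60 to 0.80) in 2i. The antisense genes Gm16175 and Gm16174 overlap 2264 and 2073 bases of the Bcl3 gene, introns included, with the same uncertainty as for Pim1.

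Counted over the set, 1 member was higher in 2i on gelatin (8.2% of all tested genes were) and 2 were lower (7.2%), 3 of 10 called where 15.4% of all tested genes were. On LN511, 2 were higher (8.58% of all genes) and 4 lower (9.95%), 6 of 10 against 18.5% of all genes. The median log2 difference of the members was 0.17 on gelatin and 0.04 on LN511, beside 0.00 and -0.04 over all genes. In Std, LN511 had 1 member higher (1.54% of all genes) and 2 lower (0.564%) than gelatin, 3 of 10 against 2.1% of all genes, with a median of -0.05 beside 0.05. These 3 calls were each lost in 6 of the 8 fits with a library left out, and the members called in Std then numbered 0 to 3. In Std 0 members passed in limma without a variance trend or with only the 4 libraries of the comparison. With only 4 libraries, Pim1 (adjusted p = 0.0515), Bcl3 (0.0553) and Socs3 (0.101) also failed to pass in 2i on LN511. Socs3 failed there without the filter, with doubtful zeros kept and without the trend as well (0.0531 to 0.0659). In 2i limma called 0 members between the coatings, where 0.0195% of all genes were called. There 4 members had an unadjusted p under 0.05 in limma, a looser threshold at which all genes were not counted. The comparisons share libraries, each group serving in a medium and in a coating comparison. The members, and the lists below, were chosen with earlier results of these data known. Their counts beside all genes therefore describe the set and are no test of it.

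**Figure D3:**
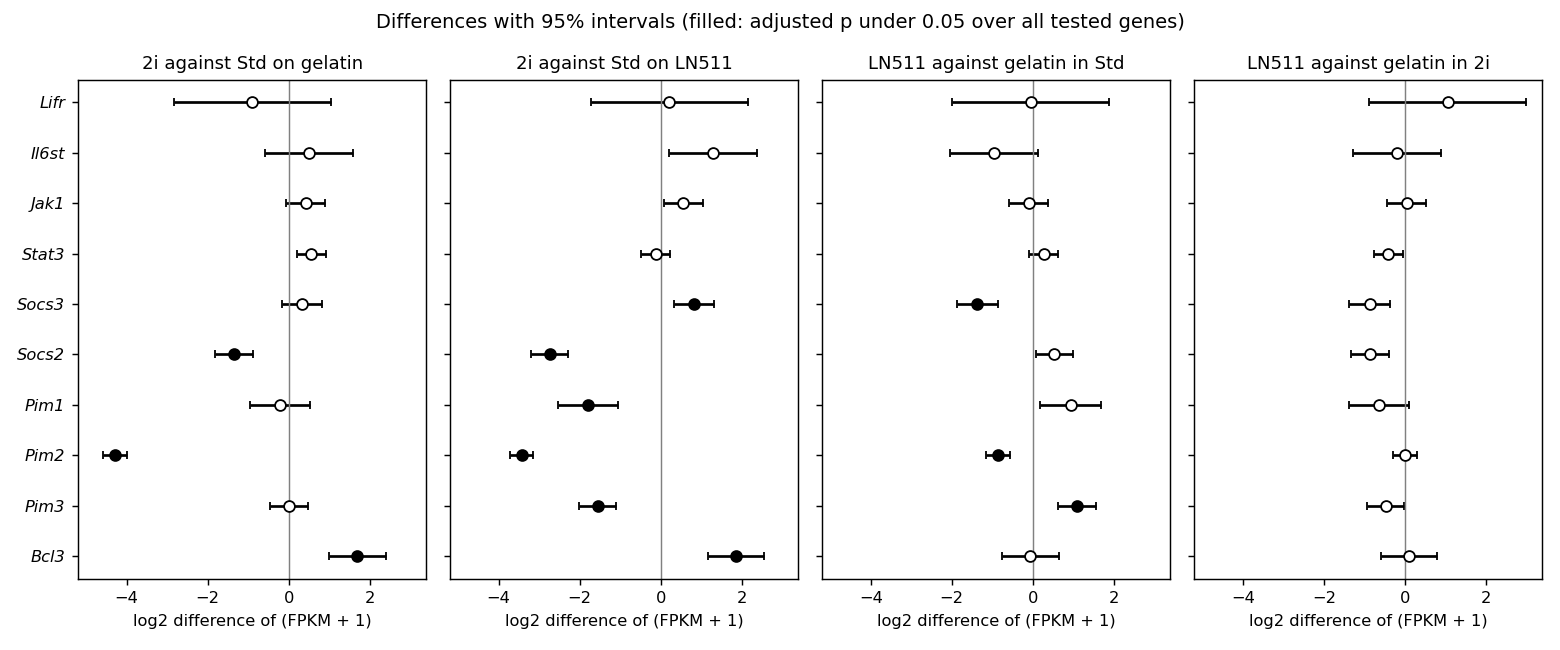
Log2 differences of FPKM + 1 (x axis) of the 10 genes (rows) in the 4 comparisons (panels), each the first-named condition minus the second, with 95% intervals. Filled points passed the test over all genes: 3 on gelatin, 6 on LN511, 3 in Std and 0 in 2i.

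Whether the medium acted differently on the coatings was tested as an interaction. Limma called 0 of the 10 members, against 0.185% of all genes (0.0486% higher and 0.136% lower). Of the members, 5 had an unadjusted p under 0.05 in limma, a looser threshold at which all genes were not counted. The interaction was -1.57 for Pim3 (SE 0.27, -2.22 to -0.92, adjusted p = 0.104), -1.58 for Pim1 (SE 0.44, -2.63 to -0.53, adjusted p = 0.244) and -1.39 for Socs2 (SE 0.27, -2.04 to -0.74, adjusted p = 0.137), so that the difference of 2i from Std was lower on LN511 than on gelatin in each case. It was 0.86 for Pim2 (SE 0.17, 0.45 to 1.27, adjusted p = 0.137) and -0.68 for Stat3 (SE 0.21, -1.19 to -0.18, adjusted p = 0.280). A difference between coatings in the response of these genes was therefore not shown over all genes.

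Around the members, 66 other genes of the pathway were listed in 7 groups, of which 48 were tested. The other 18 were below the filter, set aside for zeros or without rows. In 2i on gelatin 11 were higher and 5 lower (median 0.07), and on LN511 10 were higher and 6 lower (median -0.03), 16 of 48 called on each coating beside 15.4% and 18.5% of all genes. Of 33 calls among the 48 genes, 15 were lost under at least 1 of 7 other settings on the transcript sums (adjusted p = 0.0506 to 0.118). They were those of Osm, Cntfr, Pias3, Gbx2, Nfkb2, Bad, Cdkn1b and Nfkbia on gelatin, of Socs7, Grb2, Mcl1, Bad, Cdkn1b and Nfkbia on LN511, and of Shc1 between coatings. Of the LIF family, Lif itself was at or below 1.95 FPKM in every library. Cntfr, the receptor subunit for ciliary neurotrophic factor, fell in 2i to 0.93 ± 0.89 FPKM on LN511, against 8.93 ± 1.34 in Std (-2.44, adjusted p = 0.0074), and to 0.61 ± 0.13 on gelatin, against 4.37 ± 1.02 (-1.73, adjusted p = 0.0277). Osm, the gene for the related cytokine oncostatin M, rose to 4.46 ± 1.17 FPKM in LN511 2i, against 0.10 ± 0.14 in LN511 Std (2.30, adjusted p = 0.00331), and to 2.01 ± 0.09 in gelatin 2i, against 0.41 ± 0.23 in gelatin Std (1.11, adjusted p = 0.048). Its receptor Osmr was at or below 0.0795 FPKM in every library. The Osm call on gelatin was lost with any 1 of the 8 libraries left out (adjusted p = 0.0525 to 0.174). The Cntfr call was lost without LN511 Std replicate 1 on LN511 (0.0504) and without any Std or gelatin 2i library on gelatin (0.0502 to 0.123).

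None of 6 tested JAK and STAT genes passed in any comparison, nor had any an unadjusted p under 0.05. Stat6 had the highest mean of them, 6.68 FPKM. Of 11 tested SOCS genes and other negative regulators, 1 rose on each coating, a share near the 8.2% (gelatin) and 8.58% (LN511) of all genes called higher. Pias3, an inhibitor of STAT3, rose in 2i on gelatin to 17.4 ± 0.34 FPKM, against 4.07 ± 3.23 in Std (2.03, adjusted p = 0.0344), and Socs7 rose on LN511 to 2.57 ± 0.32, against 0.25 ± 0.36 (1.54, adjusted p = 0.0435). These calls were lost with most single libraries left out (7 of 8, adjusted p = 0.0520 to 0.133, and 6 of 8, adjusted p = 0.0665 to 0.190). Of 6 adaptors, Grb2 rose (0.58, adjusted p = 0.0245) and Shc1 fell (-0.82, adjusted p = 0.00736) in 2i on LN511. On gelatin 0 passed, and 1 had an unadjusted p under 0.05 in limma, where all genes were not counted. Over all genes on LN511, 8.58% were called higher and 9.95% lower. The Grb2 call was lost without LN511 2i replicate 2 or either LN511 Std library (adjusted p = 0.0759 to 0.110). Shc1, which links receptors to RAS, was at 67.0 ± 0.53 FPKM in LN511 Std and 38.0 ± 0.50 in gelatin Std, the only 1 of the 48 called between coatings in Std (0.80, adjusted p = 0.0349). 1 of 48 is no more than the 2.1% called over all genes. The Shc1 call was lost without any Std or LN511 2i library (adjusted p = 0.0517 to 0.155) and under 4 other settings (0.0533 to 0.0807). In 2i limma called 0 of the 48 between coatings. Of these 48, 4 had an unadjusted p under 0.05 in limma, where all genes were not counted, so nothing is drawn from that number.

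Of 9 tested LIF and STAT3 targets, 3 rose and 4 fell in 2i on each coating. Over all genes, 8.2% were called higher and 7.2% lower on gelatin, and 8.58% and 9.95% on LN511. Tfcp2l1 and Klf4, naive pluripotency factors, rose to 115 ± 29.0 and 113 ± 1.33 FPKM in LN511 2i, against 7.98 ± 1.00 and 22.6 ± 3.34 in LN511 Std (3.67 and 2.29, adjusted p = 0.000139 and 0.000154). Sgk1 also rose on either coating. Myc, Gbx2, Zfp36 and Mcl1 fell on either coating. Mcl1, which protects cells from apoptosis, had 113 ± 9.13 FPKM in gelatin 2i, against 224 ± 1.52 in gelatin Std (-0.97, adjusted p = 0.00101), and Gbx2 6.59 ± 2.55 FPKM in LN511 2i, against 42.0 ± 3.55 in LN511 Std (-2.54, adjusted p = 0.00119). The calls lost with a library left out were those of Gbx2 on gelatin, without any Std or gelatin 2i library (adjusted p = 0.0802 to 0.178), and of Mcl1 on LN511, without either LN511 Std library (0.0507 to 0.0616). Genes known as targets stood on both sides. Among the members Bcl3 rose and Pim1 and Pim3 fell on LN511, where the Socs3 rise was lost in 7 of 8 fits with a library left out.

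Of 6 tested Pim kinase substrates, 3 rose in 2i on each coating and 0 fell: the cell cycle inhibitors Cdkn1a and Cdkn1b and the pro-apoptotic gene Bad. Over all genes, 8.2% (gelatin) and 8.58% (LN511) were called higher. Substrates are proteins and only RNA was measured. A link to the levels of the Pim genes was not tested. Cdkn1a had 80.4 ± 3.44 FPKM in LN511 2i and 35.1 ± 0.63 in LN511 Std (1.17, adjusted p = 0.000919), and 76.5 ± 3.25 FPKM in gelatin 2i and 34.9 ± 3.55 in gelatin Std (1.11, adjusted p = 0.00142). Cdkn1b rose by 0.82 on LN511 and by 0.77 on gelatin (adjusted p = 0.0215 and 0.0303), and Bad by 1.08 and 1.41 (adjusted p = 0.0346 and 0.0167). Each of these Cdkn1b and Bad calls was lost with 2 to 6 of the single libraries left out (adjusted p = 0.0509 to 0.137), and those of Cdkn1a held. Of 5 NF-kappaB genes, Relb (2.80), Nfkbia (1.30) and Nfkb2 (1.05) rose in 2i on gelatin (adjusted p = 0.0136, 0.0287 and 0.0364) and Nfkbia on LN511 (1.06, adjusted p = 0.0458). These are 3 of 5 on gelatin and 1 of 5 on LN511, beside 8.2% and 8.58% of all genes called higher. Nfkb2 encodes p52, a partner of Bcl3. All 4 of these calls were lost with at least 4 of the single libraries left out (adjusted p = 0.0517 to 0.169).

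**Figure D4:**
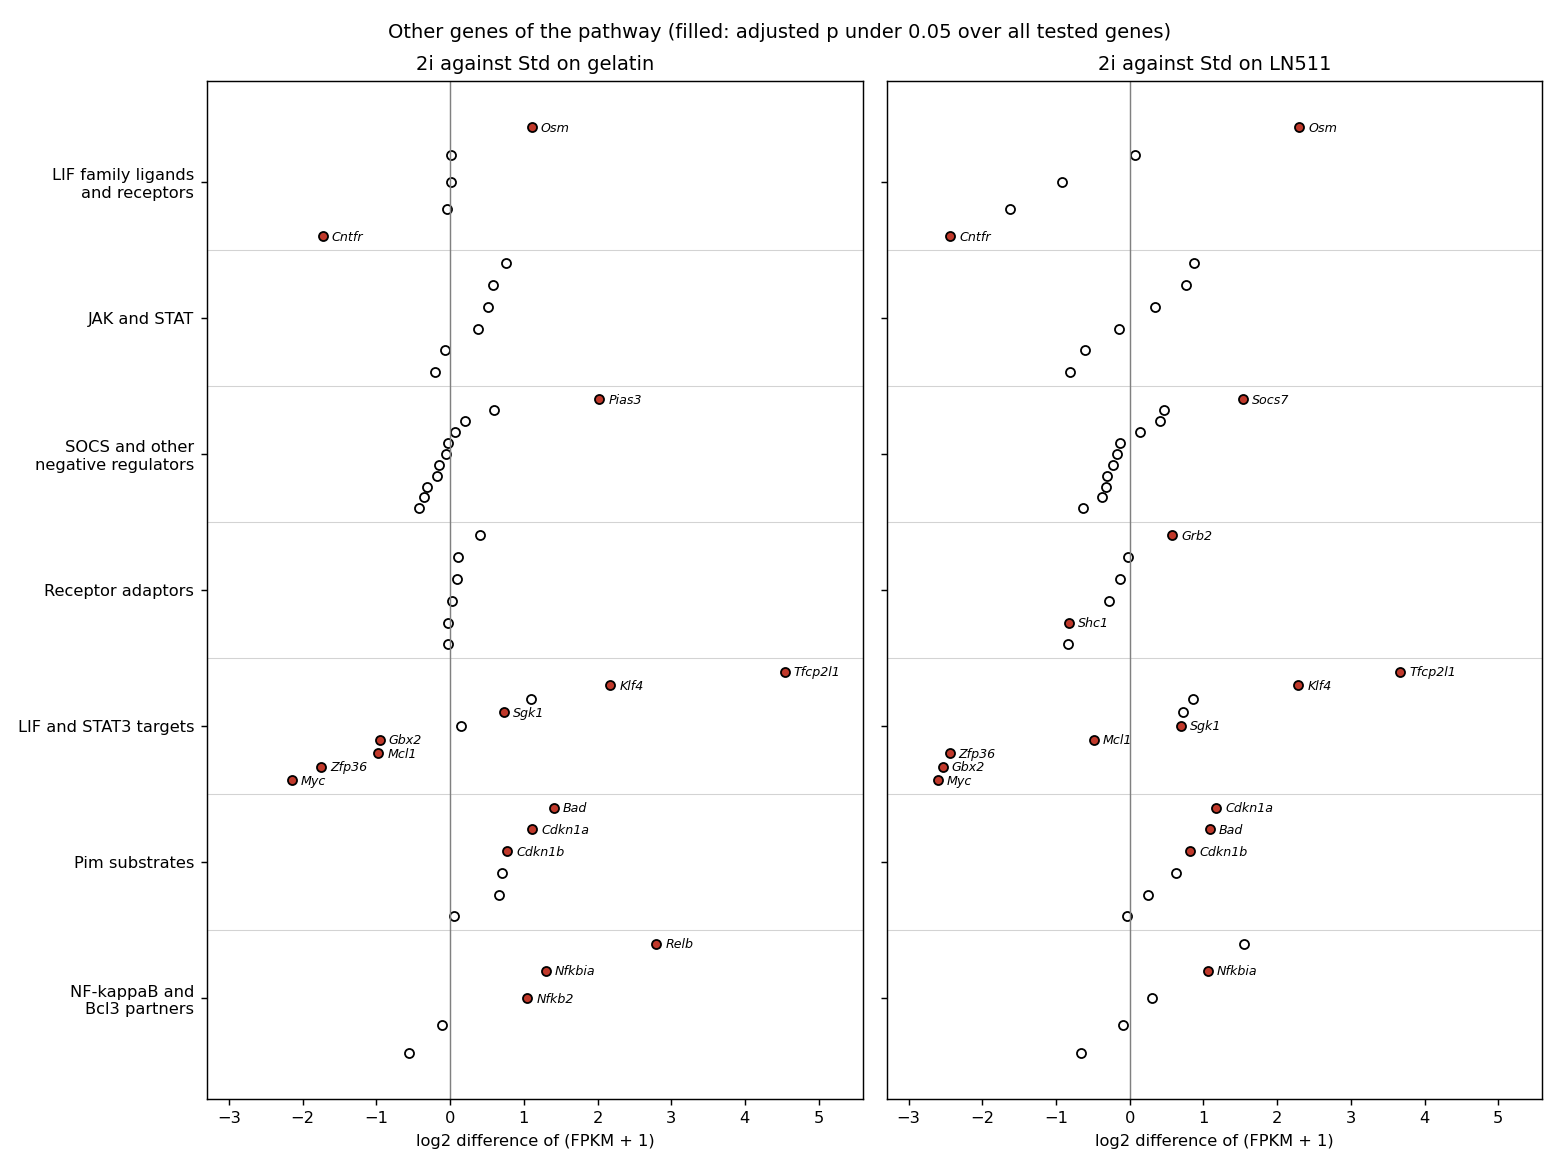
Log2 differences of FPKM + 1, 2i minus Std (x axis), of the 48 tested pathway genes in 7 groups (rows), on gelatin (left) and LN511 (right). Filled, named points passed the test over all genes, 16 on each coating, with Tfcp2l1 highest and Myc lowest in both panels.

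The genes whose pattern over the 8 libraries was most like that of 3 members were looked up by the root mean square difference of log2(FPKM + 1) after centring each gene on its mean, among 6180 genes with a mean of at least 5 FPKM. Nearest to Pim2 were Gadd45g, Hes6 and Dnmt3a, at 0.24, 0.34 and 0.38, where Pim2 itself ranged over 4.38. Gadd45g, a stress-response gene, had means of 0.46 in LN511 2i, 1.04 in gelatin 2i, 16.9 in LN511 Std and 29.1 FPKM in gelatin Std. Nearest to Socs3, which ranged over 1.95, were Cybc1, Aldoc and Rpl10l, at 0.24, 0.26 and 0.29. Aldoc, a glycolytic aldolase, had means of 4.47 in LN511 2i, 7.13 in gelatin 2i, 2.70 in LN511 Std and 7.21 FPKM in gelatin Std. Rpl10l is a copy of a ribosomal protein gene that may share its reads. Nearest to Stat3, which ranged over 0.71, were Dipk2a, Coa5 and Sc5d, at 0.10, 0.10 and 0.12.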

How the data were processed

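RNA of 8 libraries was measured by RNA-seq. The authors deposited FPKM values per gene symbol and per transcript, 1 column per library. The submitters' processing notes name TopHat2 2.1.1, Cufflinks 2.1.1 and mm10. The sources used here do not state settings, strandedness or scaling between libraries. Gene values are sums of RefSeq transcript rows (31786 of 32688 matched a symbol in the RefSeq table for GRCm38.p6), since the gene table lists at 0 47.3% of values that the sums put at 1 FPKM or more. The 21844 rows of assembled transcripts were left out, so their reads are missing from the sums.

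A gene was kept where 2 or more libraries reached 1 FPKM (11244). Set aside as doubtful zeros were 836 genes with replicates split between 0 and 5 FPKM or above, and 130 with a whole group at 0 while another averaged 5 FPKM or above, which left 10278. Differences were tested with limma 3.58.1 (R 4.3.3, eBayes with trend) on log2(FPKM + 1), with 1 mean per group, all 8 libraries in one fit (4 residual degrees of freedom) and Benjamini-Hochberg adjustment over all tested genes. The steps were tested on simulated data. The members, lists and the rule for zeros were chosen with earlier results of these data known. Named genes were the members, up to 3 called genes of each list and comparison by adjusted p (or the most abundant, where none was called), and the 3 nearest patterns. Other named genes (Lif, Osmr, Pou5f1, Nanog, Zfp42, Utf1, Thy1, Pdgfrb, Nes, Sox1, Dab2, Sox7, Gata4, Gata6, Foxa2, Sox17, Pdgfra, Myc, Zfp36, Sgk1) were chosen after their values were seen. Alternatives were other pseudocounts, filters, scaling, variance models, the gene table, a replicate block and leaving out each library. Depth is known only relatively, so no counting intervals are given.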

Additional observations from a re-analysis of the deposited data

How the results depend on the processing

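The members called numbered 3, 6, 3, 0 and 0 for 2i on gelatin, 2i on LN511, LN511 in Std, LN511 in 2i and the interaction. With a library left out they numbered 2 to 3, 4 to 6, 0 to 3, 0 and 0. For 2i on LN511 the number was 3 with only the 4 libraries of the comparison. For LN511 in Std it was 0 with those only, 0 without a variance trend and 1 with a replicate block. The gene table gave 1, 1 and 0 for the first 3 comparisons, on 7 tested members. There 43 of 72 values of the members are listed at 0. The 1 member called by limma in each medium comparison was Pim2 (adjusted p = 0.00817 on gelatin and 0.00705 on LN511). At 0 in all Std libraries, Pim2 turned round to 3.07 on either coating. So did 2i on gelatin for Bcl3 (-1.57), Pim1 (2.93), Klf4 (-4.40), Sgk1 (-2.45), Cdkn1b (-1.11) and Relb (-1.02), 2i on LN511 for Klf4 (-2.35), Sgk1 (-2.68) and Grb2 (-2.15), and LN511 in Std for Jak1 (1.59) and Stat3 (-1.94). Quantile normalization turned Pim3 in 2i on gelatin, which was not called, to -0.075.

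With a library left out, uncalled values changed sign for Lifr in 2i on gelatin (-2.17 to 0.38), 2i on LN511 (-0.37 to 0.79), LN511 in Std (-0.63 to 0.54), LN511 in 2i (-0.22 to 2.34) and the interaction (-0.17 to 2.38). They also did for Pim1 (-0.55 to 0.11) and Pim3 (-0.19 to 0.21) in 2i on gelatin, Bcl3 (-0.51 to 0.39) in LN511 in Std, Jak1 (-0.16 to 0.25) and Pim2 (-0.076 to 0.079) in LN511 in 2i, and the interactions of Bcl3 (-0.29 to 0.61) and Jak1 (-0.064 to 0.35). The cause was not tested.

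Over all genes 1583, 1905, 216, 2 and 19 were called in the 5 comparisons. With a library left out the counts were 648 to 1516, 861 to 1625, 9 to 199, 0 to 12 and 0 to 11. The gene table gave 273, 336, 263, 187 and 307, and the 4 libraries of each comparison alone 998, 962, 6 and 0. For LN511 in 2i a pseudocount of 0.1 gave 0, no variance trend 8, no filter 15 and doubtful zeros kept 42. For the interaction no filter gave 31 and doubtful zeros kept 53. Replicate differences showed no shared pattern between groups (correlations over the tested genes -0.02 to 0.02). Each group gives only 1 such difference, so this cannot settle whether replicate numbers pair the libraries. With a replicate block the counts were 1219, 1497, 80, 0 and 1, and among the members the block ended the calls of Socs3 in 2i on LN511 (adjusted p = 0.0532) and of Socs3 and Pim3 in LN511 in Std (0.0620 and 0.0780). Among the 33 calls of other pathway genes, a variance model without trend ended that of Mcl1 in 2i on LN511 (0.0598), a pseudocount of 0.1 that of Cntfr in 2i on gelatin (0.0558), and the block those of Bad in 2i on LN511 (0.0584) and Cdkn1b in 2i on gelatin (0.0537). Gbx2 and Osm in 2i on gelatin and Nfkbia and Socs7 in 2i on LN511 each lost their call under 5 of 7 settings, Shc1 in Std under 4. Of the 33, 24 had a value in the gene table, of which 2 kept their call, 15 lost it and 7 reversed. Read counts are not known, so the counting error of low values such as those of Lifr, Osm and Socs7 could not be given.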
